A study of Mus musculus with 8 samples.

Results

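The genes examined were 8 loci of the epithelial-mesenchymal transition: Zeb1, Zeb2, Snai1, Snai2, Twist1, Vim, Cdh2 and Fn1. A loop belonged to them when one of its anchors lay within 2 kb of an annotated start of the gene (mm10), so loops were chosen by position and not by any measured value. This gave 134 distinct loops among the 249200 distinct loops of the series. An anchor was found at 7 of the 8 genes, where 49.7% of 21755 protein-coding genes had one. Cdh2 had none, and Twist1 had a single loop in a single list. The remaining 6 genes had loops in all 4 lists, as did 42% of protein-coding genes. By list, 6 of the 8 genes had a loop in FOXA1 liver mets, FOXA1 tumour and HNF4G tumour and 7 in HNF4G liver mets, where 48%, 47.4%, 45.7% and 46% of protein-coding genes had one.

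The loops came from Hi-ChIP, which captures contacts between distant DNA fragments and enriches those bound by a chosen protein. The 8 samples were mouse pancreatic cancer cells labelled as WT and untreated, grown in DMEM with 10% FBS, with 2 replicates in each of 4 groups: FOXA1 liver mets, FOXA1 tumour, HNF4G liver mets and HNF4G tumour. The cells were matched lines, 1 from a primary tumor and 1 from a liver metastasis of the KPC mouse, a genetically engineered model of pancreatic cancer. The lines therefore stand for 1 tumor and 1 metastasis, and the WT label does not describe the alleles that drive the model. The loops of a group stand in 1 deposited list with no columns for single replicates, so no spread between replicates could be calculated and no test between groups was run. Intervals given here are 95% intervals that cover counting error only, and they count each loop as a separate event, which loops at a common anchor are not.

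The epithelial-mesenchymal transition is the program by which epithelial cells lose their junctions and polarity and become motile. Zeb1 and Zeb2 (zinc finger homeobox proteins), Snai1 and Snai2 (Snail and Slug, zinc finger proteins) and Twist1 (a basic helix-loop-helix protein) are transcription factors that bind E-box sequences, and the Zeb and Snail proteins are best known as repressors of the E-cadherin gene Cdh1. Vim encodes the intermediate filament protein vimentin, Cdh2 encodes N-cadherin, and Fn1 encodes the matrix glycoprotein fibronectin. FOXA1 is a forkhead protein able to engage closed chromatin, and HNF4G is an orphan nuclear receptor. Both are associated with endodermal epithelium.

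The lists held 125623 loops for FOXA1 liver mets, 104136 for FOXA1 tumour, 78098 for HNF4G liver mets and 76323 for HNF4G tumour, built on 30542 anchors. The read pairs behind each loop were not analysed here, so the depth is unknown. All 8 genes listed as ductal epithelial markers had an anchor, against 1 of 7 acinar genes (Bhlha15), 1 of 6 hepatocyte genes (Apoa1), 2 of 6 fibroblast genes (Pdgfra and Col1a1), 0 of 6 immune genes and 0 of 4 endothelial genes. Markers of ductal epithelium were thus all present among the anchors, and defining immune and endothelial markers were absent.

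The 8 genes together held 73 loops in the FOXA1 liver mets list (interval 57.2 to 91.8). The FOXA1 tumour list held 58 (44.0 to 75), the HNF4G liver mets list 53 (39.7 to 69.3) and the HNF4G tumour list 38 (26.9 to 52.2). Lists differ in length, and per 10000 loops of the list these numbers were 5.81, 5.57, 6.79 and 4.98. The genes fell into an upper set of 3, Fn1, Vim and Snai1, and a lower set. Fn1 had 21, 20, 15 and 9 loops in the lists in the order above, Vim had 18, 14, 12 and 11, and Snai1 had 17, 12, 12 and 9. Each of these counts was above that of at least 85.3% of protein-coding genes in its list, genes without an anchor included. The median protein-coding gene with an anchor had 7, 6, 5 and 5 loops, and the upper quartile was 14, 12, 10 and 10. Against genes with an anchor, Fn1 and Snai1 thus lay under the upper quartile in HNF4G tumour. Snai1 lay at it in FOXA1 tumour, and the other counts lay above it.

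In the lower set Zeb2 had 10, 5, 5 and 5 loops, Snai2 had 4, 5, 4 and 2, and Zeb1 had 3, 2, 4 and 2. Among genes with an anchor, the quartiles of loop number were 4 and 14 in the FOXA1 liver mets list. Zeb2 therefore lay within the middle range there, Snai2 lay at its lower edge, and Zeb1 lay under it. Neighboring genes in the order could not be separated by their counting intervals: in the FOXA1 liver mets list the interval was 13 to 32.1 for Fn1, 10.7 to 28.4 for Vim, 9.90 to 27.2 for Snai1 and 4.80 to 18.4 for Zeb2. The plot of loops per gene shows the step from the first 3 genes to the rest in each list.

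**Figure D1:**
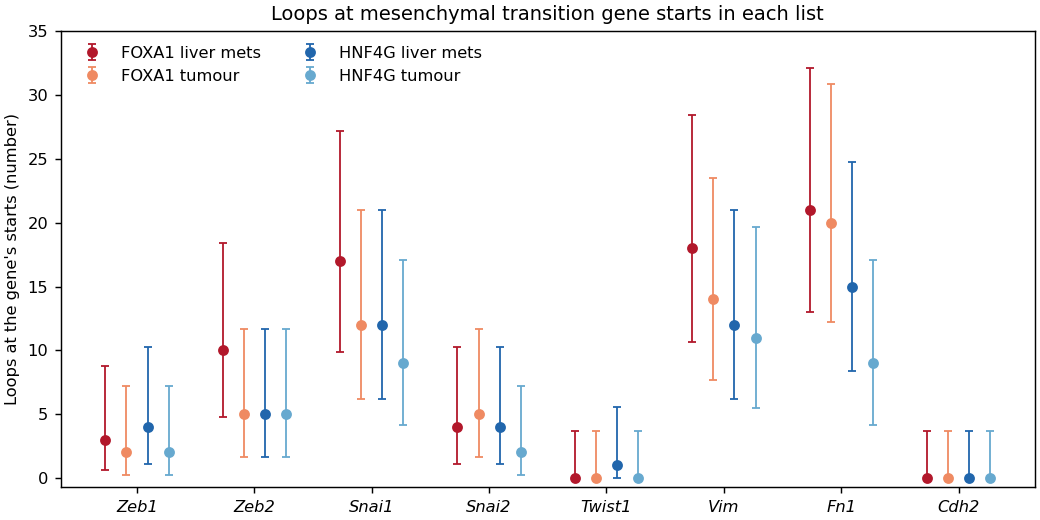
Number of loops at the annotated starts of each gene (vertical axis) in each of the 4 lists (colors), with exact Poisson 95% intervals that cover counting error only. Fn1, Vim and Snai1 had 9 to 21 loops per list, Zeb2 5 to 10, Zeb1 and Snai2 2 to 5, Twist1 1 loop in 1 list and Cdh2 none.

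How many loops a gene can have depends on how many anchors lie near it. Snai1 lay in an anchor-rich region with 122 anchors within 2 Mb of its 5′ end, more than at 84.5% of protein-coding genes. Snai2 had 65 and Fn1 64, close to the median of 65. Twist1 had 45, Vim 40, Zeb1 28, Zeb2 19 and Cdh2 3. Each anchor pair up to 2000 kb apart was therefore set against the share of all anchor pairs of like span that were listed. Vim had 39 possible pairs and 3.67, 3.39, 3.83 and 3.63 times as many loops as that share gives in the FOXA1 liver mets, FOXA1 tumour, HNF4G liver mets and HNF4G tumour lists. Fn1 had ratios of 1.69, 1.99, 2.1 and 1.25, Zeb2 had 1.91, 1.13, 1.5 and 1.55, Snai2 had 1.25, 2.05, 2.43 and 1.15 and Zeb1 had 1.24, 1.04, 3.0 and 1.46. The Snai2 and Zeb1 ratios rest on 2 to 5 loops per list, and Twist1, with its 1 loop, had 1.54 in HNF4G liver mets.

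Snai1 had ratios of 1.14, 0.969, 1.31 and 1.00, so its many loops were close to the number that pairs of like span give in a region with this many anchors. Over all 8 genes the ratios were 1.64, 1.60, 2.01 and 1.45. These are descriptions and were not tested, since pairs of 1 gene share an anchor. The share was matched on span only, and not on anchor width or on lying at a gene start. The Vim anchor (4383 bases), the 5′ anchor of Fn1 (4914) and the internal anchor of Zeb2 (4300) were wider than the median anchor (2335). The Snai1 anchor (2077) was narrower. Whether the ratios follow width was not tested.

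**Figure D2:**
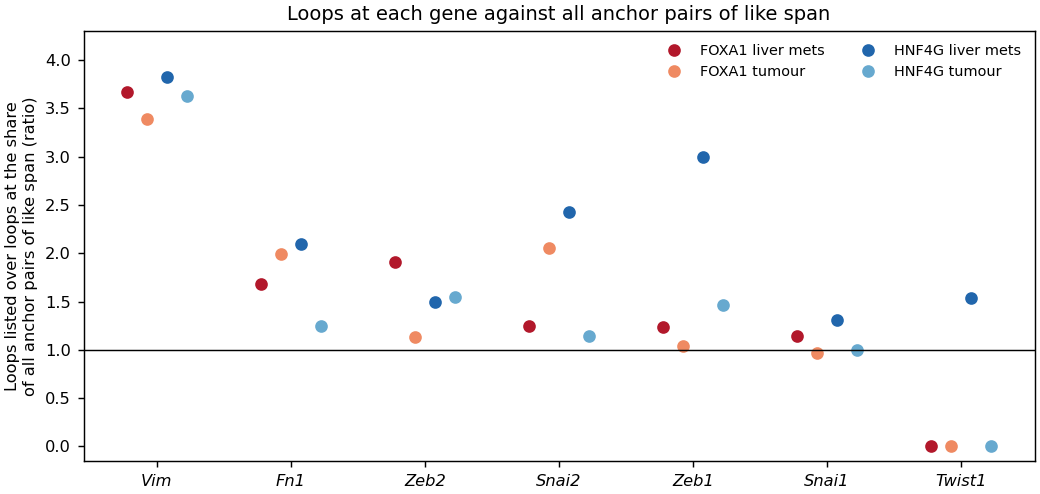
Loops listed at each gene divided by the number that the listed share of all anchor pairs of like span gives (vertical axis), by list (colors); the line marks a ratio of 1. Vim lay between 3.39 and 3.83 in all 4 lists, and Snai1 lay between 0.969 and 1.31.

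Vim had the most loops shared by all 4 lists, and Vim and Fn1 each had 16 in 2 or more. The Vim anchor at chr2:13572225-13576607 holds the 5′ end of the gene (start 13573927, + strand) and exons of Vim. Of the 23 distinct Vim loops, 6 were in all 4 lists, 4 in 3, 6 in 2 and 7 in 1. At the rates of all loops of like span, 0.831 of the 23 would be in all 4 and 16.3 in 1. Upstream within 303 kb lay 12 partners, each of which was listed in at least 2 lists (6 in all 4, 3 in 3 and 3 in 2). The other 11 partners lay farther away or downstream, and none of them was in all 4 lists. This division was made after the loops were seen.

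The upstream partners ran along the neighboring gene Cubn, which encodes the endocytic receptor cubilin, and 8 of the 23 loops ended in it. All 8 were in the FOXA1 liver mets list, and 6, 6 and 5 of them were in FOXA1 tumour, HNF4G liver mets and HNF4G tumour. Every loop carries a deposited value, read here from the numbers alone as the −log10 of an adjusted p, which follows span and is capped at 20 in each list. Values of 2 or more were held by 9.33% of FOXA1 liver mets loops and 7.84% of FOXA1 tumour loops. The shares were 7.21% in HNF4G liver mets and 7.32% in HNF4G tumour. Being listed, in 1 or more lists, is thus not by itself strong evidence of a contact. The partner at chr2:13405650-13411867, in a Cubn intron 166 kb from Vim, had values of 12.3 in FOXA1 liver mets, 6.22 in FOXA1 tumour, 3.0 in HNF4G liver mets and 1.65 in HNF4G tumour. Among FOXA1 liver mets loops of like span, 0.496% had a value as high. Among HNF4G tumour loops of like span, 42.1% did.

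A second Cubn partner, at chr2:13370467-13373329 and 203 kb from Vim, had another order. Its values were 8.77 in FOXA1 liver mets, 1.62 in FOXA1 tumour, 1.77 in HNF4G liver mets and 7.28 in HNF4G tumour. It stood among the top 0.753% of FOXA1 liver mets loops and the top 0.538% of HNF4G tumour loops of like span. In FOXA1 tumour 98.7% and in HNF4G liver mets 99.5% of such loops were as high or higher. The third, at chr2:13412537-13415566 and 160.4 kb away, had values of 3.86, 1.47, 2.97 and 2.86 in the same order of lists.

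Loops at Vim in all 4 lists also reached an anchor between genes 15.3 kb upstream (values 0.976, 1.11, 0.681 and 0.877), the start of Trdmt1, a tRNA methyltransferase gene, 30.1 kb upstream, and an anchor over a Cubn exon 87.7 kb upstream. The 15.3 kb loop was the shortest at Vim. The start of Rsu1, 303 kb upstream, was a partner in 3 lists and not in HNF4G tumour. The start of Mindy3, 1156 kb upstream, was a partner in 3 lists and not in FOXA1 tumour. The longest Vim loop, 1572 kb, was in the FOXA1 tumour list only. Among Vim loops private to 1 list the highest value was 1.94, for an anchor in Hacd1 403 kb downstream in HNF4G tumour. No Vim loop private to 1 list thus reached a value of 2.

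Anchors of these loops were searched on both strands for 4 strings: the forkhead core TGTTTAC, the HNF4 string CAAAGTCCA, the AP-1 site TGACTCA and the E-box CACCTG that Zeb and Snail proteins recognize. None of the 4 strings contains another, and each was counted on its own. Over all 30542 anchors, 36.6% held the forkhead string, 4.40% the HNF4 string, 51.3% the AP-1 string and 83.2% the E-box. Windows from the strongest Vim partner are printed because its loop had the highest value of any loop at the 8 genes. The anchor held 3 forkhead and 4 AP-1 matches. Capitals mark the match (GRCm38, chr2:13406735-13406801, − strand, and chr2:13409860-13409926, + strand).
Vim partner, forkhead: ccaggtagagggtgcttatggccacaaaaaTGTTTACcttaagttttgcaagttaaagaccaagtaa
Vim partner, AP-1: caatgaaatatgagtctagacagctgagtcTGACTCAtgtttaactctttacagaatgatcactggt

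Fn1 had the most loops and used a pair of anchors. The first, chr1:71649696-71654609, holds the 5′ end of the gene (start 71653200, − strand) and had 25 distinct loops. It also lies within 2 kb of a start of Apol7d, and its loops cannot be divided between the genes. The second, chr1:71641832-71644209, lies over an Fn1 exon within 2 kb of an internal annotated start and had 17. A 9.13 kb loop joined the anchors in all 4 lists, with values of 0.173, 0.506, 1.78 and 0.386, and was the shortest loop at Fn1. Apart from each other, the anchors had 24 and 16 partners, of which 9 were shared. FOXA1 liver mets had more loops at the 5′ anchor (16 against 6), and HNF4G liver mets had more at the internal anchor (10 against 6). Both tumour lists had more at the 5′ anchor, 12 against 9 for FOXA1 and 7 against 3 for HNF4G.

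Most Fn1 loops, 30 of 41, pointed upstream, where the next coding gene is Mreg. The long noncoding locus Gm28818 held the 2 strongest. Its anchor at chr1:71917116-71924860, 269 kb upstream of the 5′ anchor, was in all 4 lists with values of 12.1 in FOXA1 liver mets, 5.17 in FOXA1 tumour, 1.89 in HNF4G liver mets and 1.86 in HNF4G tumour. It was among the top 0.366% of loops of like span in FOXA1 liver mets and 1.66% in FOXA1 tumour, and 59.8% and 64.7% of such loops were as high in the HNF4G lists. The internal anchor met the same Gm28818 anchor in FOXA1 tumour and HNF4G liver mets, with values of 1.73 and 3.46. In HNF4G liver mets the internal anchor therefore had the higher value of the pair.

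The second Gm28818 anchor, chr1:71892861-71900438, 244 kb upstream, had values of 4.72 in FOXA1 liver mets, 1.71 in FOXA1 tumour and 3.40 in HNF4G liver mets, and its loop was not listed in HNF4G tumour. In all, 15 Fn1 loops spanned 185 to 351 kb upstream. Of these, 7 were in FOXA1 liver mets, 8 in FOXA1 tumour, 8 in HNF4G liver mets and 4 in HNF4G tumour. No Fn1 loop had a value of 2 or more in the HNF4G tumour list, against 4, 4 and 2 in the FOXA1 liver mets, FOXA1 tumour and HNF4G liver mets lists. Among Fn1 loops private to 1 list the highest value was 2.82 in FOXA1 tumour, for an anchor between genes at chr1:71836107-71838641, 185 kb upstream.

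Downstream, Fn1 had 11 loops. One of them reached the start of Atic, a purine synthesis gene, 86.0 kb from the internal anchor in every list except FOXA1 liver mets, where the 5′ anchor met Atic instead (95.1 kb, value 0.0889). The longest Fn1 loop spanned 1856 kb in FOXA1 liver mets and had the tied value of 1.87 that long loops of that list share. Windows from the strongest Gm28818 anchor, which held 3 forkhead and 4 AP-1 matches and no HNF4 match, are printed with the match in capitals (GRCm38, chr1:71922059-71922125 and chr1:71920068-71920134, both − strand).
Fn1 partner, forkhead: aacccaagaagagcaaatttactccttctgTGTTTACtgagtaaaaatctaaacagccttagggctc
Fn1 partner, AP-1: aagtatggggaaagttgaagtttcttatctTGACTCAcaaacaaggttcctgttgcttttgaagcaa

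**Figure D3:**
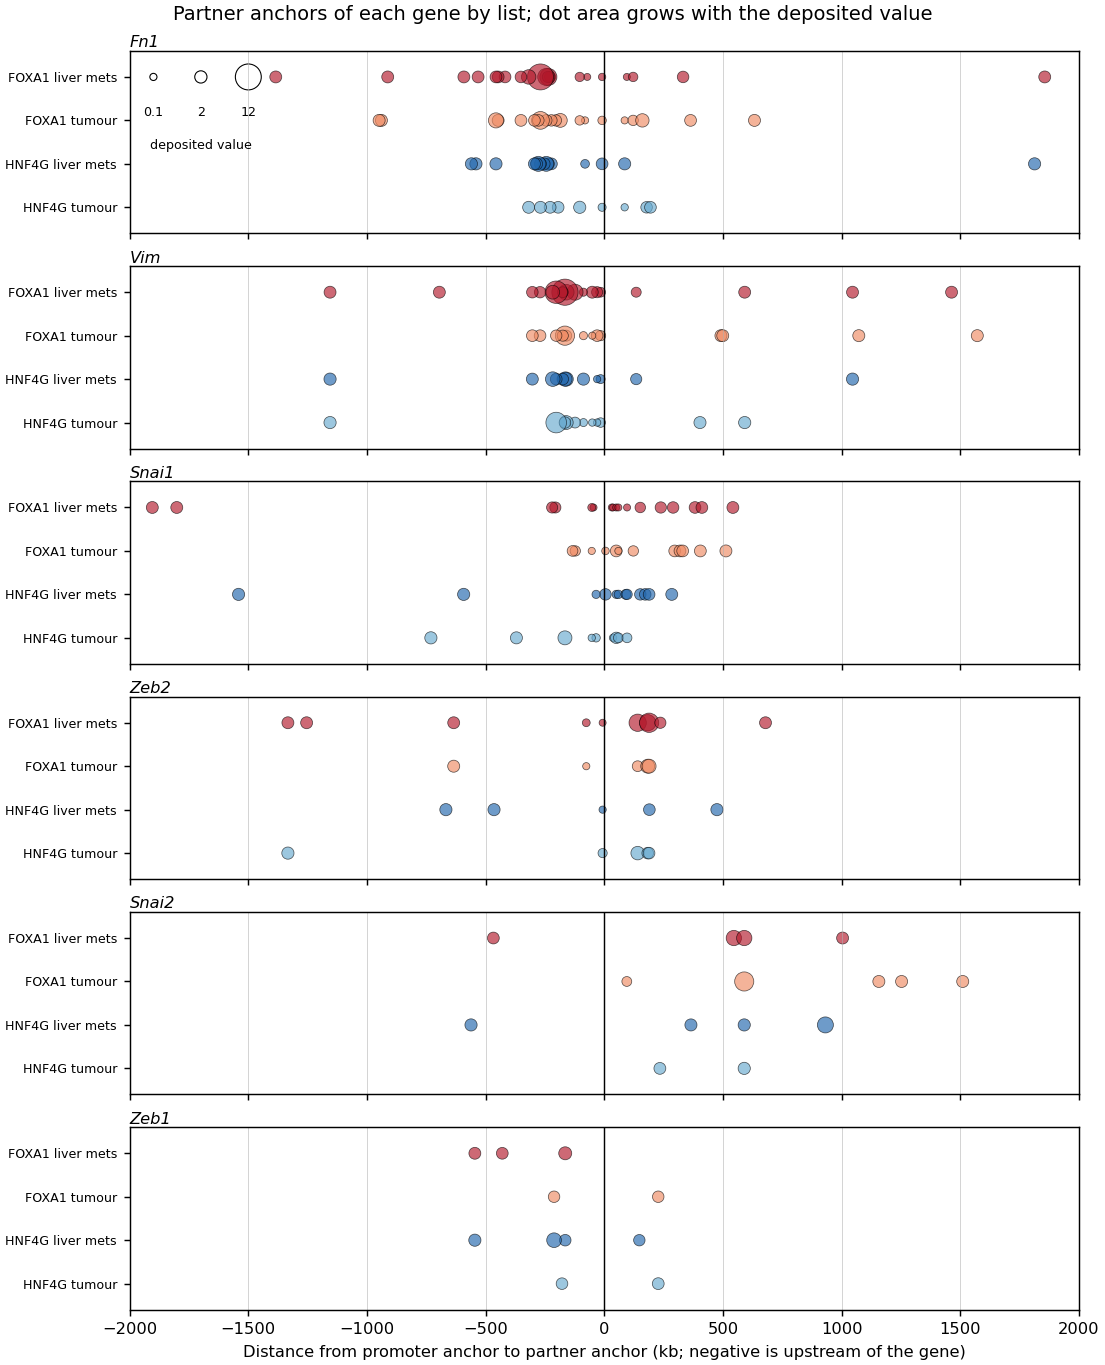
Distance from the promoter anchor to each partner anchor in kb (horizontal axis, negative upstream of the gene) for 6 genes, with 1 row per list and dot area growing with the deposited value. Vim loops crowd within 303 kb upstream, Fn1 loops within 185 to 351 kb upstream and the high-value Zeb2 loops within 141 to 189 kb downstream, while Snai1 loops lie on both sides with small dots.

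Snai1 had 36 distinct loops, of which 28 (77.8%) were in a single list, 4 in 2, 2 in 3 and 2 (5.56%) in all 4. Over all loops of the series these shares were 65.6% in a single list and 5.28% in all 4, and at the rates of all loops of like span 23.7 of the 36 would be in a single list and 1.59 in all 4. Its anchor was chr2:167536968-167539044, which holds the 5′ end (167538195, + strand) and also lies within 2 kb of a start of Gm11474. Nearly all shared Snai1 loops were short. Under 100 kb there were 10 loops, 7 of them in 2 or more lists and none with a value of 2 or more. At 100 kb or more there were 26, of which 25 were in a single list.

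The 2 Snai1 loops in all 4 lists ended downstream in the noncoding gene Gm11476. That to chr2:167586257-167590628, 50.4 kb away at the start of the pseudogene Gm11475, had values of 0.0888 in FOXA1 liver mets, 1.80 in FOXA1 tumour, 0.424 in HNF4G liver mets and 1.61 in HNF4G tumour. The loop to chr2:167596334-167598644, 59.5 kb away, had values of 0.0889, 0.123, 0.510 and 1.02. Both had their lowest value in FOXA1 liver mets, in which 95.4% and 94.5% of loops of like span were as high or higher. Another partner, at the start of Ube2v1 96.1 kb downstream (chr2:167632395-167635810), was listed in FOXA1 liver mets, HNF4G liver mets and HNF4G tumour with values of 0.0931, 1.19 and 0.942.

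Both liver mets lists, and neither tumour list, joined Snai1 to the anchor over the starts of Tmem189 and Cebpb, 152 kb downstream, with values of 1.26 for FOXA1 and 1.64 for HNF4G. Such values were ordinary, as 51.7% and 53.5% of loops of like span in these lists were as high or higher. That anchor carried many loops in every list: 26 in FOXA1 liver mets, 16 in FOXA1 tumour, 18 in HNF4G liver mets and 21 in HNF4G tumour. Cebpb encodes a bZIP transcription factor. The only Snai1 loop with a value of 2 or more was private to HNF4G tumour, to chr2:167371015-167373605 between genes 166 kb upstream (value 2.88). The shortest loop, 5.14 kb, ended over the 3′ part of the gene itself in FOXA1 tumour and HNF4G liver mets, and the longest, 1905 kb, reached Eya2 in FOXA1 liver mets.

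The Snai1 promoter is printed because it holds the string that Snail and Zeb proteins recognize. The E-box was in 17.2% of 32817 RefSeq promoter windows of 250 bases, the forkhead string in 3.16%, the AP-1 string in 4.46% and the HNF4 string in 0.384%. Windows of Zeb2, Twist1 and Vim held no E-box match, and Zeb1, Snai2, Cdh2 and Fn1 had no window to search. The Snai1 window held 1 E-box match, in capitals, and none of the others (RefSeq, GRCm38, chr2:167537945-167538194, + strand). The 59.5 kb partner held 1 forkhead match, printed after it (chr2:167597474-167597540, + strand).
Snai1 promoter, E-box: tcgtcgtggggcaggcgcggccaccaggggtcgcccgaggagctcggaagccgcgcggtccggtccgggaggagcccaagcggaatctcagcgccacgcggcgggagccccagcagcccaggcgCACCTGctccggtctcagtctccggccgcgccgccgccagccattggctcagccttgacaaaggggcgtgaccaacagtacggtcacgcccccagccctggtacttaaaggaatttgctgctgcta
Snai1 partner, forkhead: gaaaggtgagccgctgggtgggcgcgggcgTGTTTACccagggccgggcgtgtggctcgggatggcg

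Zeb2 had 14 distinct loops at a pair of anchors, and none was in all 4 lists. At the rates of all loops of like span, 0.547 of the 14 would be. The anchor chr2:45115904-45118215 holds the 5′ end of the gene (45117395, − strand). The anchor chr2:45108013-45112312 holds internal starts and lies over exons of Zeb2 and its antisense gene Zeb2os. It also lies within 2 kb of starts of Gm27404, Gm27645 and Gm27761, and the 5′ anchor within 2 kb of a start of Gm27645. The anchors had 6 and 9 loops, counting in both the 6.90 kb loop that joined them in every list except FOXA1 tumour. That loop was the shortest at Zeb2.

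The strongest Zeb2 loops joined the internal anchor to the neighboring gene Gtdc1, a glycosyltransferase-like gene, or to a site between the genes, in FOXA1 liver mets, FOXA1 tumour and HNF4G tumour. The partner in a Gtdc1 intron at chr2:44919959-44922634, 189 kb downstream, had values of 6.28 in FOXA1 liver mets, 2.88 in FOXA1 tumour and 1.72 in HNF4G tumour. The Gtdc1 start at chr2:44925774-44928252, 183 kb downstream, had values of 4.2, 2.85 and 1.70. A partner between the genes at chr2:44968207-44970450, 141 kb downstream, had values of 4.87, 1.36 and 2.64. All 3 were highest in FOXA1 liver mets, among the top 1.77%, 3.67% and 2.88% of loops of like span.

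None of these loops was listed in HNF4G liver mets. There the 5′ anchor met the Gtdc1 start, 190.0 kb away, with a value of 1.76, a loop that no other list held. Upstream, 5 loops of 465 to 1333 kb reached noncoding loci or anchors between genes, and at each of these partners the nearest protein-coding start was that of Zeb2. The longest, 1333 kb to Gm13470, was in FOXA1 liver mets and HNF4G tumour. The highest value private to 1 list was 1.99, for an anchor 667 kb upstream in HNF4G liver mets, which is the tied value of long loops there. Windows from the Gtdc1 intron partner are printed because it is the strongest Zeb2 loop and held 2 forkhead, 1 HNF4 and 2 AP-1 matches (GRCm38, chr2:44921465-44921531 and chr2:44920655-44920723, both + strand).
Zeb2 partner, forkhead: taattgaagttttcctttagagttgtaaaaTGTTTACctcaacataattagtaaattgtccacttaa
Zeb2 partner, HNF4: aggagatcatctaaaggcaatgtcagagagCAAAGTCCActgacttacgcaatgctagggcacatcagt

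Snai2 combined few loops with long spans. From its anchor at chr16:14704467-14706926 (5′ end at 14705852, + strand) it had 12 loops, 8 of them of 500 kb or more. A single loop was in all 4 lists, and the other 11 were each in a single list. At the rates of all loops of like span, 0.116 of the 12 would be in all 4 lists and 10.1 in a single list. The shared loop reached chr16:15293038-15298150, an anchor between genes 589.9 kb downstream, with values of 3.63 in FOXA1 liver mets, 6.15 in FOXA1 tumour, 1.99 in HNF4G liver mets and 1.99 in HNF4G tumour. It was in the top 6.15% and 0.489% of FOXA1 loops of like span, and 74.8% and 77.8% of HNF4G liver mets and HNF4G tumour loops of like span were as high or higher. Over all loops of 500 to 1000 kb, 0.291% were in all 4 lists.

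Near that anchor, a loop to chr16:15251102-15252641 was in FOXA1 liver mets only (546 kb, value 3.65). HNF4G liver mets alone joined Snai2 to the shared start of Mcm4 and Prkdc, genes of the replicative helicase and of DNA double-strand break repair, 932 kb downstream (chr16:15636234-15638954). Its value of 4.06 was in the top 0.762% of loops of like span. The shortest Snai2 loop, 95 kb, and the longest, 1511 kb, were both in FOXA1 tumour only. Windows from the shared anchor, which held 1 forkhead and 3 AP-1 matches, are printed with matches in capitals (GRCm38, chr16:15297218-15297284 and chr16:15294420-15294486, both + strand). The AP-1 window holds 2 adjoining matches.
Snai2 partner, forkhead: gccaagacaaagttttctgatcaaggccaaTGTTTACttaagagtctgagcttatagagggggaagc
Snai2 partner, AP-1: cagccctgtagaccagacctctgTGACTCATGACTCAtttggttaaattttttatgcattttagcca

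Zeb1 had 7 loops from the anchor chr18:5591238-5594213, which holds its 5′ end (5591860, + strand) and also lies within 2 kb of starts of Gm10125 and Gm2238. None was in more than 2 lists, and at the rates of all loops of like span 0.134 of the 7 would be in all 4. The partner between genes 212 kb upstream, chr18:5379914-5382392, had values of 1.66 in FOXA1 tumour and 3.26 in HNF4G liver mets. Another, 164 kb upstream at chr18:5426979-5429493, had 2.37 in FOXA1 liver mets and 1.71 in HNF4G liver mets. The start of a transcript of Svil, which encodes the actin-binding protein supervillin, 545 kb upstream, was a partner in both liver mets lists (1.84 and 1.99) and was the longest Zeb1 loop.

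No Zeb1 pair of lists stood out, as the 4 loops in 2 lists fell on 3 different pairs. The shortest loop, 148 kb to an intron of Zeb1 itself, was in HNF4G liver mets only. The highest value private to 1 list was 1.79, at Gm26682 429.7 kb upstream in FOXA1 liver mets. The promoter anchor of Zeb1 was the only one of the 9 with a forkhead match, of which it held 2.

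Twist1 had an anchor over its 5′ end (chr12:33957196-33959595, + strand) with 45 anchors within 2 Mb. It had 1 loop, to chr12:35711745-35713850 between genes 1754 kb downstream in HNF4G liver mets. Its value, 1.99, is the tied value of long loops in that list. In the remaining lists Twist1 had 0 loops, a number for which the interval reaches 3.69. Of its 44 anchor pairs, 13 spanned 500 to 1000 kb and 31 spanned 1000 to 2000 kb. The listed share of all pairs of like span gives 1.40 loops in FOXA1 liver mets and 0.994 in FOXA1 tumour. It gives 0.650 in HNF4G liver mets and 0.717 in HNF4G tumour, so few loops are expected at such spans. Cdh2 (chr18:16588877-16809246, − strand) was the only member with no anchor at any of its 3 annotated starts. The nearest anchor lay 308 kb from a start, between genes, and carried 1 loop in FOXA1 liver mets. Only 3 anchors lay within 2 Mb of its 5′ end, and 2.34% of protein-coding genes had fewer. No list held a loop at Cdh2.

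Of all 134 loops, 82 (61.2%) were in 1 list, 27 in 2, 14 in 3 and 11 (8.21%, Wilson interval 4.65 to 14.1) in all 4. Over all loops of the series 65.6% were in 1 list and 5.28% in all 4. Sharing falls with span, and at the rates of all loops of like span 4.25 of the 134 would be in all 4 lists. Vim held 6 of the 11 loops, Fn1 and Snai1 2 each and Snai2 1. Median span fell from 408 kb for loops in 1 list to 227, 158 and 87.7 kb for those in 2, 3 and 4 lists.

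**Figure D4:**
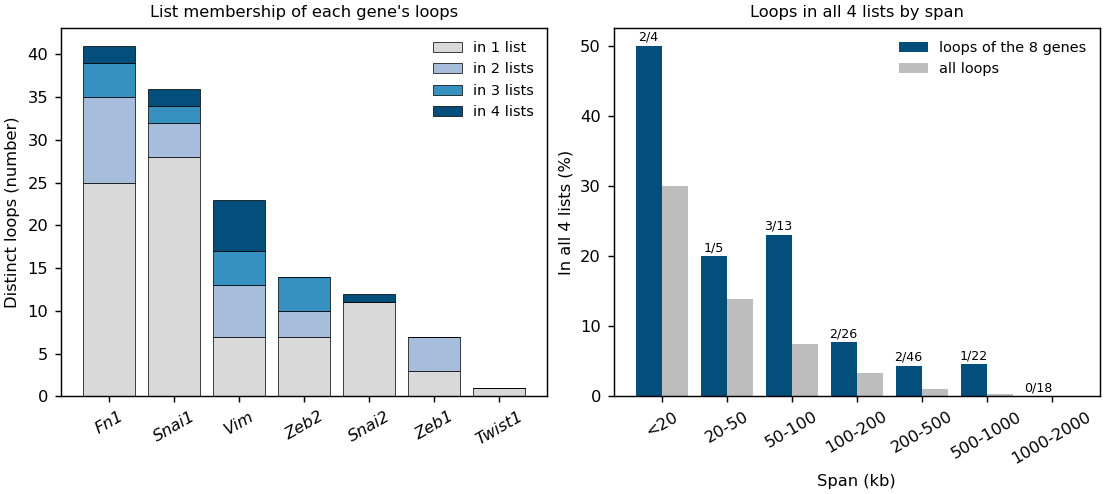
Left, distinct loops per gene (vertical axis) divided by the number of lists that hold them. Right, percent of loops in all 4 lists by span in kb, for the loops of the 8 genes (numbers above bars) and for all loops. Vim had 6 of 23 loops in all 4 lists, and 2 of 46 member loops of 200 to 500 kb were in all 4.

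By factor, 59 loops (44.0%) were in FOXA1 lists only, 30 (22.4%) in HNF4G lists only and 45 (33.6%) in lists of both, where all loops of the series gave 48.3%, 25% and 26.7%. By line, 57 (42.5%) were in liver mets lists only, 33 (24.6%) in tumour lists only and 44 (32.8%) in both, where all loops gave 39.4%, 32.3% and 28.3%. The FOXA1 lists shared 27 member loops, 37.0% of those in liver mets and 46.6% of those in tumour, where all loops gave 34.0% and 41.1%. The HNF4G lists shared 16, which was 30.2% and 42.1%, where all loops gave 32.9% and 33.6%. Within liver mets the factors shared 25 loops (34.2% of FOXA1 and 47.2% of HNF4G loops), where all loops gave 27.8% and 44.8%. Within tumour they shared 19 (32.8% and 50%), where all loops gave 28.4% and 38.7%. The longer list of a pair sets the lower share.

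Partners were spread over annotated starts (46 loops), gene bodies (41) and regions between genes (47), and lay upstream in 72 loops and downstream in 62. No loop joined 2 of the 8 genes. Member loops were longer than loops in general, with medians of 238, 217, 223 and 172 kb in the FOXA1 liver mets, FOXA1 tumour, HNF4G liver mets and HNF4G tumour lists, where all loops had 164, 141, 114 and 131 kb. Values of 2 or more were found for 15, 8, 7 and 4 member loops, and the shares among all loops of like span give 7.62, 5.70, 4.42 and 3.54. In any list, 22 loops had such a value, 8 at Fn1, 5 at Vim, 3 each at Zeb2 and Snai2, 2 at Zeb1 and 1 at Snai1.

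Over the partners in 3 or 4 lists, 23 anchors in all, 12 held the forkhead string (52.2%), 3 the HNF4 string (13%), 17 the AP-1 string (73.9%) and 17 the E-box (73.9%). At the shares of all anchors of like width these numbers would be 8.84, 1.08, 12.2 and 19.6. Over all 122 partner anchors apart from the promoter anchors themselves, 55, 8, 72 and 93 held the strings, against 45.5, 5.48, 63.3 and 102 at like width. In these partners the forkhead, HNF4 and AP-1 strings were thus somewhat more frequent than in anchors of like width and the E-box somewhat less, which was not tested. Among the 9 promoter anchors the numbers were 1, 1, 5 and 6, against 3.65, 0.467, 4.94 and 7.89 at like width. The forkhead string was thus less frequent there than in anchors of any kind, of which 45.2% were promoter anchors. Its share among promoter anchors alone was not calculated, so this is not shown to be a trait of the 8 genes. A match is a description and does not show that a factor was bound.

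The comparison of liver mets with tumour asks whether looping at these genes differed between the metastatic and the primary line. For FOXA1, the share of the list held by the 8 genes was 1.04 times as high in liver mets as in tumour (0.729 to 1.5). For HNF4G it was 1.36 times as high (0.882 to 2.13). Both intervals included 1. They treat the counts as independent, although 27 loops stood in both FOXA1 lists and 16 in both HNF4G lists. Among genes with 10 or more loops over both lists, Zeb2, Snai1, Vim and Fn1 qualified. For FOXA1, Zeb2 was past 1.5-fold toward liver mets (1.66, 0.516 to 6.18), as were 11.4% of 6876 genes, and none of the 4 was past it toward tumour, as were 15.3%. For HNF4G, Fn1 was past it toward liver mets (1.63, 0.668 to 4.22), as were 12.6% of 5439 genes, and none toward tumour (19.5%).

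Vim had nearly equal shares in both lines, with ratios of 1.07 for FOXA1 (0.501 to 2.32) and 1.07 for HNF4G (0.431 to 2.67). Snai1 had 1.17 (0.529 to 2.69) and 1.30 (0.504 to 3.50). The intervals of the smaller genes were wide, as for Snai2 with 0.663 for FOXA1 (0.132 to 3.08) and 1.95 for HNF4G (0.280 to 21.6).

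Between factors, the FOXA1 share was 0.856 times the HNF4G share in liver mets (0.593 to 1.24) and 1.12 times in tumour (0.731 to 1.73). In raw loop numbers the liver mets ratio was 1.38 (0.954 to 2.00), so its direction depended on the division by list length. Direction also turned in liver mets with loops of a value of 2 or more (1.03) and in tumour without Fn1 (0.960). In liver mets none of the 4 genes was past 1.5-fold, where 12.8% of 6356 genes were higher for FOXA1 and 19.4% lower. In tumour Fn1 was (1.63, 0.709 to 4.06), where 13.5% of 6047 genes were higher and 21.9% lower.

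Related genes of an epithelial and a mesenchymal list were counted the same way. Of 12 epithelial genes, 9 had an anchor (not Ovol1, Cldn4 and Cldn7), and together they had 297, 218, 156 and 211 distinct loops. The top 3 were Cdh1, the E-cadherin gene (62, 41, 28 and 42 loops), Krt18 (57, 43, 35 and 36) and Krt19 (61, 42, 27 and 30). In HNF4G tumour Cdh1 alone had more loops than the 8 mesenchymal genes together (38). In the other lists it had fewer than their 73, 58 and 53. Counts of the related lists were not set against the number of anchors near each gene. Of 32 other mesenchymal genes, 19 had an anchor, with 228, 206, 171 and 164 loops, led by Fosl1 (44, 31, 32 and 24), Tcf3 (21, 21, 19 and 18) and S100a4 (21, 22, 14 and 11). Those with none were Foxc2, Gsc, Acta2, Tagln, Col1a2, Col3a1, Mmp2, Mmp9, Cdh11, Lox, Tnc, Postn and Fap. None of the 134 loops had its other end at a gene of either list.

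The epithelial list had an HNF4G ratio of liver mets over tumour of 0.723 (0.584 to 0.893), and the other mesenchymal list had 1.02 (0.818 to 1.27). The intervals of the 8 genes (0.882 to 2.13) and of the epithelial list overlap slightly, and the difference between the lists was not tested.

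**Figure D5:**
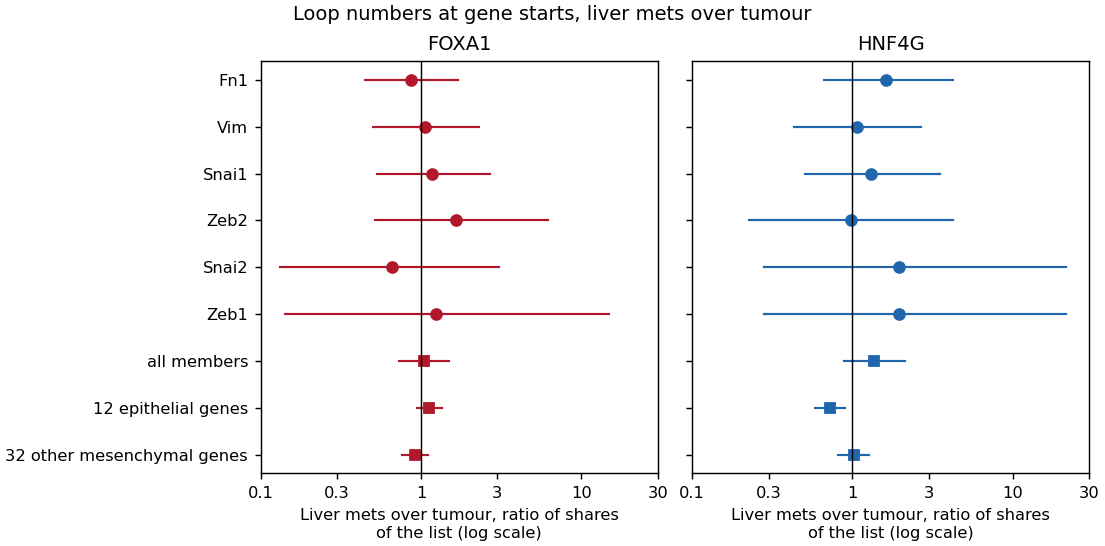
Ratio of the share of the liver mets list to that of the tumour list (horizontal log axis) for each gene, for the 8 genes together and for both related lists, with exact 95% intervals for counting error. The HNF4G interval of the 12 epithelial genes runs from 0.584 to 0.893, and the intervals of the 8 genes together include 1 for both factors. Intervals count loops at a common anchor as separate events, so one that leaves out 1 is not a test between the lines.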

How the data were processed

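Groups were taken from the sample titles. As described by the authors, reads were aligned to mm10 with HiC-Pro (3.1.0 per the labels) using DpnII fragments with duplicates removed, and loops were called with hichipper. How replicates were joined, the source of the anchors and a minimum of read pairs are not given in the sources used here. Each deposited list gives a value per loop, taken as the −log10 of an adjusted p from the numbers alone, and a display score deposited by the authors that only restates that value. Values of different lists need not stand for the same evidence. Starts came from GENCODE M21. A span is the distance between anchor midpoints. Coordinates count from 1.

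Loop numbers had exact Poisson intervals, ratios of shares Clopper-Pearson intervals and shares Wilson intervals (scipy 1.17.1, pandas 2.3.3). Loops at Zeb2 or Fn1 with both anchors at the gene were counted once per gene. Motif windows came from the GRCm38 RefSeq genome (pysam 0.24.0) and promoters from RefSeq, in which Zeb2, Snai1, Twist1 and Vim were matched and Zeb1, Snai2, Cdh2 and Fn1 were not. Named loops were, per gene, the 3 in the most lists (ties by summed value), the highest value in 1 list, the shortest and the longest; others were added after their values were seen. Members, related lists and alternatives were chosen with earlier results of these data known. The counting steps were tested on simulated data.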

Additional observations from a re-analysis of the deposited data

Results flagged for a closer look

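At 3 genes the ratio of liver mets to tumour shares lay on opposite sides of 1 for the factors. Zeb1, Snai1 and Vim, the other genes with enough loops to be compared, had ratios above 1 for both factors. The share of all genes with ratios on opposite sides was not calculated, so the count is not set against a background. Zeb2 had 1.66 for FOXA1 and 0.977 for HNF4G. Snai2 had 0.663 for FOXA1 and 1.95 for HNF4G. Fn1 had 0.870 for FOXA1 and 1.63 for HNF4G. With 1 list per group, whether the factors differ was not tested, and all 6 intervals include 1. In raw loop numbers the Fn1 ratio for FOXA1 was 1.05, on the other side of 1, and the Zeb2 ratio for HNF4G was exactly 1, at 5 loops in each list.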

How the results depend on the processing

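Of 61 alternative values, 54 stayed within the bound set for them. For ratios and shares the bound was the interval of the reported value, and for numbers of loops or genes it was 1.5-fold. For median spans it was the quartiles of the loops' spans, a wide bound that is not an interval of the median. The other 7 moved. Keeping only loops with a value of 2 or more left 15 loops in FOXA1 liver mets, 8 in FOXA1 tumour, 7 in HNF4G liver mets and 4 in HNF4G tumour. Without division by list length, the FOXA1 over HNF4G ratio in liver mets was 1.38. Within its interval, that ratio turned from 0.856 to 1.03 with loops of a value of at least 2, and the tumour ratio from 1.12 to 0.960 without Fn1. The share of loops in all 4 lists was 17.2% (23 loops) with 5 kb added to both sides of every anchor and 22.7% (5 of 22) if a value of 2 had to be reached in some list. The first is set by the construction, which lets neighboring anchors stand for each other. The second is also set in part by the construction, since a loop in more lists has more chances to reach the value. How much of the rise this gives was not tested. No paired analysis was possible because each group has 1 list covering both replicates, so no replicate could be left out or blocked. Depth is unknown, and a loop that is not listed may still have been present under the detection limit of its library.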
